A study of Mus musculus with 26 samples.

Results

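Gonads of XY mouse embryos at embryonic stage E13.5 that carried 1 of 2 deletions at the Fgf9 locus, named Δ225 and Δ306, were compared by RNA sequencing. The comparison took every library whose label gives either genotype, 6 of Δ225 and 3 of Δ306, out of 26 samples in the series. Gonads were freed of the mesonephros by microdissection, polyadenylated RNA was isolated and directional libraries were made. XY wild-type gonads of the same stage (WT, 3 libraries) are given as a reference level, and the spread was estimated from all 22 libraries of 1 deposited table, which also holds the deletions Δ104 (4) and Δ93 (6). The labels name no further allele or agent in either group. Where each deletion starts and ends, whether 1 or both copies carried it, and the strain, parents and litters are not in the labels. Of these 2 deletions only Δ225 is labelled with biological replicates and Δ306 with replicates alone, so the p-values measure the spread between these samples. Δ306 and WT also stand in an earlier deposited table that lacks Δ225, and the time of deposit and the Δ225 genotype cannot be told apart.

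Fgf9 encodes a secreted growth factor that Sertoli cells, the supporting cells of the testis, release in the XY gonad. It binds FGF receptors, mainly FGFR2 in this tissue, and with SOX9 holds supporting cells on the testis path while the WNT4 and RSPO1 signals of the ovary are kept low. Sertoli cells then send Desert hedgehog and other signals to the interstitium, where steroid-making fetal Leydig cells arise, and they keep male germ cells out of meiosis. Mice without Fgf9 show male-to-female sex reversal, in which pre-granulosa genes, those of the ovarian supporting cells, replace the Sertoli program.

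The libraries held 11582619 to 46821225 counts in Δ225 and 21797725 to 31815037 in Δ306. Values per library are CPM, counts relative to the scaled library size. Sums over 10 gonad factors, among them Wt1, Gata4, Nr5a1 and Emx2, were 1158 to 1619 CPM in Δ225 and 1311, 1380 and 1338 CPM in Δ306, so both groups carried the RNA of the labelled tissue. Several libraries stood apart. Δ225 replicates 4 to 6 lay together in the principal component plot, and replicates 1, 2 and 3 lay away from them and from each other. Replicate 1 of Δ225, the shallowest, held 129261 CPM of the 13 mitochondrially encoded messages, against 25517 to 53934 CPM in the other Δ225 libraries and 20570 to 27554 CPM in Δ306. Replicate 3 of Δ225 held 1990 CPM of 12 striated muscle genes, against 15.8 to 41.5 CPM in the other Δ225 libraries and 138 to 201 CPM in Δ306. Its Cdh16, a cadherin gene of kidney tubules, stood at 26.3 CPM, against 0.174 to 0.415 CPM in the other Δ225 libraries and 8.78, 1.22 and 8.51 CPM in Δ306. Summed Y-linked messages (Ddx3y, Eif2s3y, Kdm5d, Uty) were 0.199 CPM in Δ225 replicate 4 and 0.141 CPM in Δ306 replicate 3, although both are labelled XY. The other libraries held 7.4 to 20.5 CPM in Δ225 and 11.2 and 11.7 CPM in Δ306. All 9 lay below the WT libraries, which held 31.6, 31.2 and 77.2 CPM. Xist, which is high in XX cells, was at most 3.12 CPM in all 9. The part of these features in the results was not tested, and counts of genes are given below with and without those libraries.

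**Figure D1:**
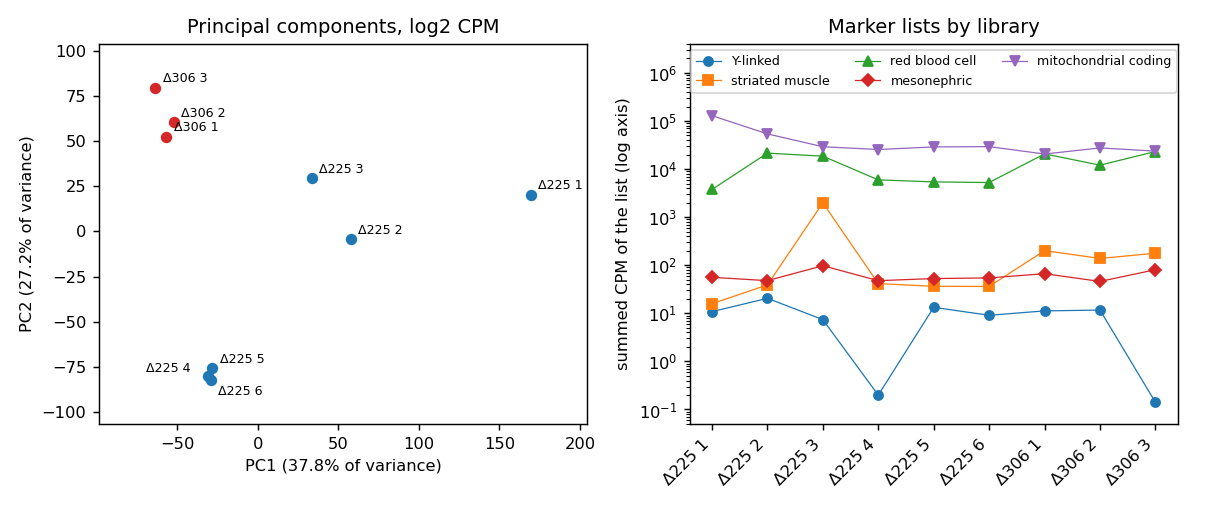
Left, the first 2 principal components of log2 CPM over the 9 libraries, with each point 1 library of Δ225 (blue) or Δ306 (red). Right, summed CPM (log axis) of 5 marker lists in each library. Δ225 replicate 1 lies far out on the first component with the highest mitochondrial sum, replicate 3 has the highest muscle sum, and the Y-linked sum is 0.199 CPM in Δ225 replicate 4 and 0.141 CPM in Δ306 replicate 3.

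Of 22941 genes tested, 3030 (13.2%) differed between Δ225 and Δ306 at an adjusted p under 0.05 by edgeR's quasi-likelihood test. Of these, 1484 (6.47% of those tested) were higher in Δ225 and 1546 (6.74%) were lower. A change of more than 1 log2 unit was called in 758 genes upward and 1042 downward. The median log2 fold change of all tested genes, always Δ225 minus Δ306, was -0.01. In 4635 genes (20.2%) the libraries of the groups did not overlap. List counts below are to be read against these shares. A single call in a list of 10 to 14 genes is near 6.47% or 6.74%. The authors' deposited table of the same contrast calls 4219 genes, 2248 higher and 1971 lower. The number of calls fell when 1 Δ306 library was left out. It was 887 without Δ306 replicate 3, 1283 without replicate 2 and 2291 without replicate 1. Of the 3030 called genes, 0, 0 and 1 changed direction in that order. Each of these runs also has fewer Δ306 samples, the same number in each, and the counts still differed with the library left out. For the fall from 3030 in any 1 run, the smaller group and the values of the omitted library cannot be told apart. The same holds for each lost call below. Leaving out Δ225 replicates 1 and 3 gave 3481 calls, and leaving out both libraries with Y-linked sums near 0 gave 596. Without composition scaling the split was 1027 higher and 1975 lower, with a median of -0.11 over all genes.

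**Figure D2:**
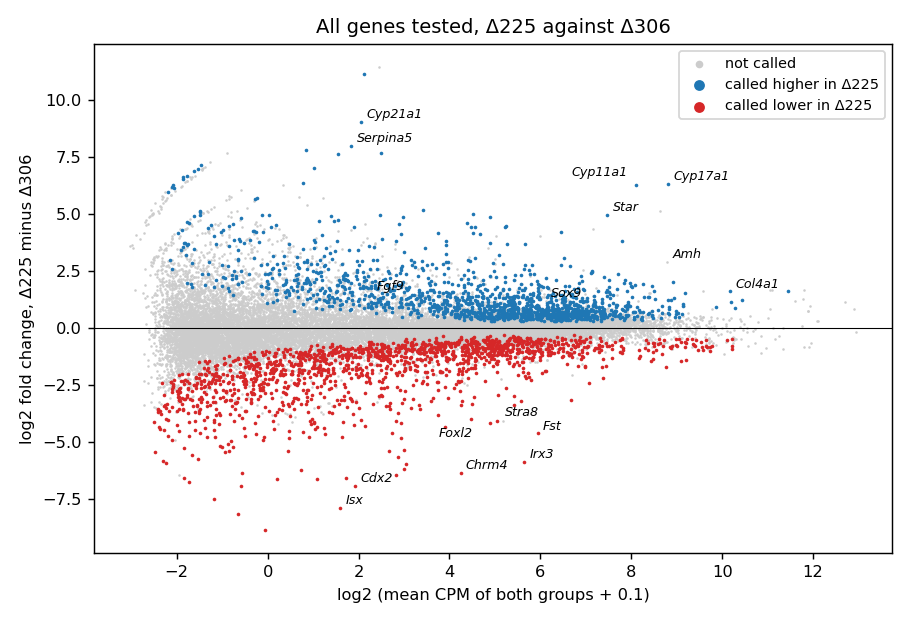
Each point is 1 of the tested genes, with its log2 mean level over both groups (horizontal) and its log2 fold change, Δ225 minus Δ306 (vertical). Blue and red mark the 1484 genes called higher and the 1546 called lower in Δ225. The horizontal axis is log2 of the mean CPM plus 0.1. Cyp17a1 and Star are marked above the line, Fst and Irx3 below it.

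The calls also followed the length of the gene. Genes were split into 4 classes of nearly equal size by summed exon length. In the longest class (5677 bases or more), 782 were called higher and 200 lower. In the shortest class (up to 1678 bases) the counts were 84 higher and 495 lower. Median log2 fold changes rose from -0.21 in the shortest to 0.18 in the longest class. The part of length in the results was not tested.

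Δ225 gonads held more Fgf9 than Δ306 gonads, and 5 of 6 Δ225 libraries lay below WT. It measured 5.66, 5.21, 16.5, 6.36, 4.69 and 3.69 CPM in Δ225 replicates 1 to 6. The Δ306 libraries held 2.94, 2.17 and 2.33 CPM and the WT libraries 9.85, 9.21 and 9.55 CPM. All 6 Δ225 values lay above all 3 Δ306 values, and replicate 3 alone exceeded WT. The log2 fold change was 1.498 (SE 0.40), with an adjusted p of 0.0186. Without Δ225 replicate 3 it was 1.03 and was still called (adjusted p = 0.0249). Its adjusted p missed the threshold when Δ306 replicate 2 (0.0817) or 3 (0.0859) was left out and in a fit of these 2 groups alone (0.0799), with a log2 fold change of 1.42 to 1.51 in each.

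A long non-coding RNA beyond Fgf9 set the groups apart completely. Gm33321 starts 230 kb from the annotated start of Fgf9 on the same strand (GENCODE M21 on GRCm38, chr14:58300973-58363816). No read was counted in any of the 6 Δ225 libraries, whereas Δ306 libraries held 21, 36 and 34 counts (0.922, 1.07 and 1.2 CPM). WT libraries held 25, 13 and 17 counts, the Δ104 libraries 8 to 59 and the Δ93 libraries 35 to 70. Gm33321 was thus at 0 in Δ225 and detected in each library of the other 4 genotypes. Set against 3 counts over the 6 Δ225 libraries together, the limit that a count of 0 allows, it was at least 64.9-fold lower than in Δ306 (adjusted p = 1.97e-05). Whether the deleted segment of Δ225 holds part of this gene is not stated in the labels. The 250 bases upstream of the RefSeq start of Fgf9 and of Gm33321 are printed for reference. The RefSeq start of Fgf9 lies inside the GENCODE gene (chr14:58070547-58112720), downstream of the GENCODE start used for the distance above, so the Fgf9 stretch is upstream of the RefSeq start only. The sequences come from RefSeq on GRCm38.p6, from chr14:58072436-58072685, plus strand, and chr14:58300552-58300801, plus strand, 5′ to 3′. Neither holds a CCAAT motif on either strand, the motif taken up again with the cholesterol genes, so no letters are in capitals.
Fgf9: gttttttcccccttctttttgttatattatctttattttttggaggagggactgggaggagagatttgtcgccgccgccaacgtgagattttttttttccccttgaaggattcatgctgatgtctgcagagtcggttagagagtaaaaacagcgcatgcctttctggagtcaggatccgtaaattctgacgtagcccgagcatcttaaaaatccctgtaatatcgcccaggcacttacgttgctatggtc
Gm33321: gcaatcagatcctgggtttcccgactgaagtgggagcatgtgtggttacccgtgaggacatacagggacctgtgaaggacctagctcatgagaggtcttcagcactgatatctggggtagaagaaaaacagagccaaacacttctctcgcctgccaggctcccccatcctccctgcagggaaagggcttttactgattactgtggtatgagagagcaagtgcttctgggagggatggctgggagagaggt

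Of 41 genes tested within 2 Mb of Fgf9, Fgf9 and Gm33321 included, 3 were called higher and 3 lower, shares near the 6.47% and 6.74% over all genes tested. Lats2, a kinase of the Hippo pathway, ranged over 42.6 to 52.4 CPM (median 45.7) in Δ225 against 29.5, 29.5 and 23.1 CPM in Δ306, a log2 fold change of 0.74 (SE 0.15). Parp4, a poly(ADP-ribose) polymerase, was also higher, at 0.80, and the groups did not overlap for either. Cryl1, a crystallin-related dehydrogenase, was lower, at -0.89, as was Eef1akmt1, a lysine methyltransferase acting on an elongation factor, at -0.70 (adjusted p 0.00351 to 0.0409 over these 4 genes).

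Of 13 FGF ligands and receptors tested, 3 were called higher in Δ225 and 1 lower, with a median log2 fold change of 0.71. Besides Fgf9, the ligand Fgf2 rose by 1.33 (SE 0.21, adjusted p = 6.10e-04), from 18.1, 14.7 and 15.6 CPM in Δ306 to 30.4 to 52.8 CPM (median 38.2). The receptor Fgfr4 rose by 1.85 (SE 0.40, adjusted p = 0.00514). Fgfr2, the receptor through which FGF9 acts on supporting cells, was lower: Δ225 libraries held 64 to 97 CPM (median 85.8) and Δ306 libraries 125, 140.4 and 164 CPM. Its log2 fold change was -0.77 (SE 0.22, adjusted p = 0.0248), without overlap. That call was lost without any 1 of the Δ306 replicates (adjusted p 0.0501, 0.101 and 0.19). Fgf10 was at 1.38 (adjusted p = 0.0533) and Fgfr1 at 0.26 (adjusted p = 0.285), neither past the threshold. Fgf20, a close relative of Fgf9, was too low to test, with 2 counts in each group.

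Genes that ERK signalling induces downstream of FGF receptors were higher in Δ225 in 8 of 12 cases and lower in none, with a median of 1.01. Among all genes tested, 6.47% were called higher and 20.2% did not overlap. The 8 were Dusp6, Spry1, Spry4, Spred1, Spred2, Etv1, Il17rd and Egr1. Il17rd, a feedback inhibitor at the receptor, held 80 to 122 CPM (median 107) in Δ225 and 46.4, 49.3 and 43.6 CPM in Δ306, a log2 fold change of 1.17 (SE 0.21). Spred1, which restrains RAS activation, held 135 to 199 CPM (median 161) against 95.8, 93 and 88.5 CPM, a change of 0.83 (SE 0.13). Egr1, an early-response transcription factor, held 22.8 to 29.7 CPM (median 25.1) against 12.2, 8.95 and 9.22 CPM, a change of 1.33 (SE 0.26). None of the 8 overlapped between groups, and their adjusted p ran from 7.57e-04 to 0.0352. The ETS factors Etv4 and Etv5, the sprouty gene Spry2 and the phosphatase gene Dusp4 were not called, with Etv4 at -0.09 and Etv5 at 1.10 (adjusted p = 0.0882). Leaving out Δ306 replicate 2 left 4 calls and leaving out replicate 3 left 3. Dusp6 and Spred2 also lost the call without Δ225 replicate 3 (adjusted p 0.053 to 0.0561), with changes of 0.88 and 0.72 against 0.99 and 0.79 with all libraries. Dusp6 lost it without Δ225 replicate 4 as well (adjusted p = 0.0523), and Spred2 without Δ306 replicate 1 (0.0539).

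**Figure D3:**
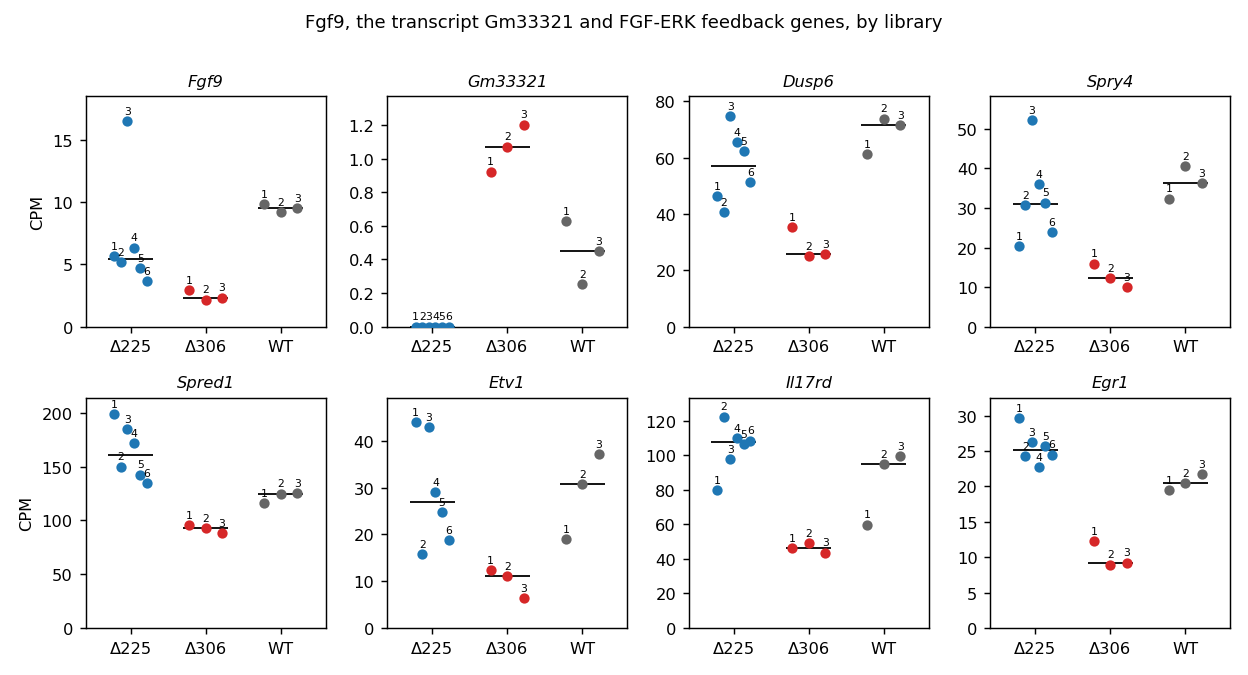
CPM of Fgf9, Gm33321 and 6 FGF-ERK feedback genes (linear axes from 0) in each library of Δ225, Δ306 and WT. Numbers are replicate numbers and bars are group medians. Gm33321 is at 0 in all 6 Δ225 libraries, and Δ306 libraries lie below all Δ225 libraries for Fgf9 and the 6 feedback genes.

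The Sertoli genes were mostly higher in Δ225, few of them past the threshold, and the Δ306 libraries differed widely among themselves. Of 20 tested, 19 had a log2 fold change above 0 (median 1.83), 5 were called higher and 1 lower, and 13 did not overlap between groups. Over all genes tested, 6.47% were called higher, 6.74% lower, and 20.2% did not overlap. Sox9, the central Sertoli transcription factor, held 75.7 to 128 CPM (median 92.7) in Δ225, 64, 50.5 and 11.2 CPM in Δ306 and 98.7, 101 and 104.3 CPM in WT. Every Δ225 library exceeded every Δ306 library, yet the log2 fold change of 1.21 (SE 0.66) had an adjusted p of 0.242. Amh, the hormone that removes the Müllerian duct, held 58.7, 405, 311, 1352, 1440.4 and 1110.1 CPM in Δ225 replicates 1 to 6 and 151, 154 and 4.95 CPM in Δ306. Δ225 replicates 4 to 6 were near the WT libraries (1685, 1263 and 1397 CPM), replicate 1 lay below 2 of the Δ306 libraries, and the change of 2.92 (SE 1.74) was not called (adjusted p = 0.287).

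The 5 genes that rose were Sox8, Mro, Cbln4, Hsd17b1 and Vnn1. Sox8, a relative of Sox9 that acts beside it, held 22.9 to 46.1 CPM (median 38.3) against 7.59, 8.8 and 2.01 CPM, a change of 2.56 (SE 0.72) with adjusted p = 0.0233. Hsd17b1, an enzyme of the fetal Sertoli cell that completes androgen synthesis, rose by 4.14 (SE 0.94), and Vnn1, a pantetheinase, by 2.15 (SE 0.39). Cyp26b1, which degrades retinoic acid in the fetal testis, was at 162 to 279.6 CPM (median 204) against 48.5, 49.3 and 10.1 CPM, with adjusted p = 0.0761. Dmrt1, which is shared by Sertoli and germ cells, differed by 0.30 (adjusted p = 0.613). Nr0b1, a repressor of nuclear receptors that also counts among ovarian genes, was lower, at -1.86 (SE 0.26), from 31.9, 29.1 and 29.8 CPM in Δ306 to 4.25 to 13.1 CPM (median 8.52) in Δ225. Δ306 replicate 3, the library with a Y-linked sum of 0.141 CPM, held the lowest Δ306 value of Sox9, Amh, Sox8 and Hsd17b1. Without it 1 of the 20 genes was called higher, Vnn1, while Sox8, Mro, Cbln4 and Hsd17b1 lost the call (adjusted p 0.0573 to 0.173). Without Δ306 replicate 1 or 2 there were 3 calls each, and Sox8 and Cbln4 were lost in both.

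Ovarian supporting-cell genes were lower in Δ225. Of 15 pre-granulosa genes, 13 were called lower in Δ225 (6.74% over all genes), none was higher, and the median log2 fold change was -2.29. Foxl2, the transcription factor that keeps granulosa identity, held 0.339 to 7.19 CPM (median 2.7) in Δ225, 36.5, 45 and 85.7 CPM in Δ306 and 0.829, 0.777 and 0.633 CPM in WT. Fst, encoding the activin antagonist follistatin, held 2.17 to 14.6 CPM (median 3.35), 71.2, 102 and 179.7 CPM and 1.26, 1.01 and 1.69 CPM in the same order. Irx3, a homeobox gene of pre-granulosa cells, held 0.694 to 3.24 CPM (median 1.55), 69.7, 80.9 and 144 CPM and 4.52, 2.25 and 3.11 CPM. The highest Δ225 library thus stayed below the lowest Δ306 library for all 3 genes, and Δ306 replicate 3 held the highest value of each. Their log2 fold changes were -4.15 (SE 0.78), -4.60 (SE 0.83) and -5.85 (SE 0.77), with adjusted p 2.62e-04 to 0.00198.

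The signals of the ovarian pathway were lower too. Wnt4 fell by 1.58 log2 units (SE 0.39, adjusted p = 0.0111) from 109.8, 131 and 193 CPM in Δ306 to 23.6 to 64.7 CPM (median 52) in Δ225. Rspo1, the secreted enhancer of WNT signalling, fell by 1.55 (SE 0.32, adjusted p = 0.00419). Bmp2, a ligand made by pre-granulosa cells, was at -2.29, and Msx1, a homeobox gene, at -3.99. The WNT targets Axin2 and Nkd1 were at -0.94 and -1.25. Lef1 (-0.26, adjusted p = 0.578) and Lgr5 (-1.22, adjusted p = 0.06) did not pass. Without Δ306 replicate 3, 8 of the 13 calls were made: Wnt4, Rspo1, Axin2, Nkd1 and Gng13 were lost (adjusted p 0.0517 to 0.176). Whether fewer pre-granulosa cells or less of each message per cell gave these levels cannot be told apart in bulk RNA, and this holds for every cell type below.

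**Figure D4:**
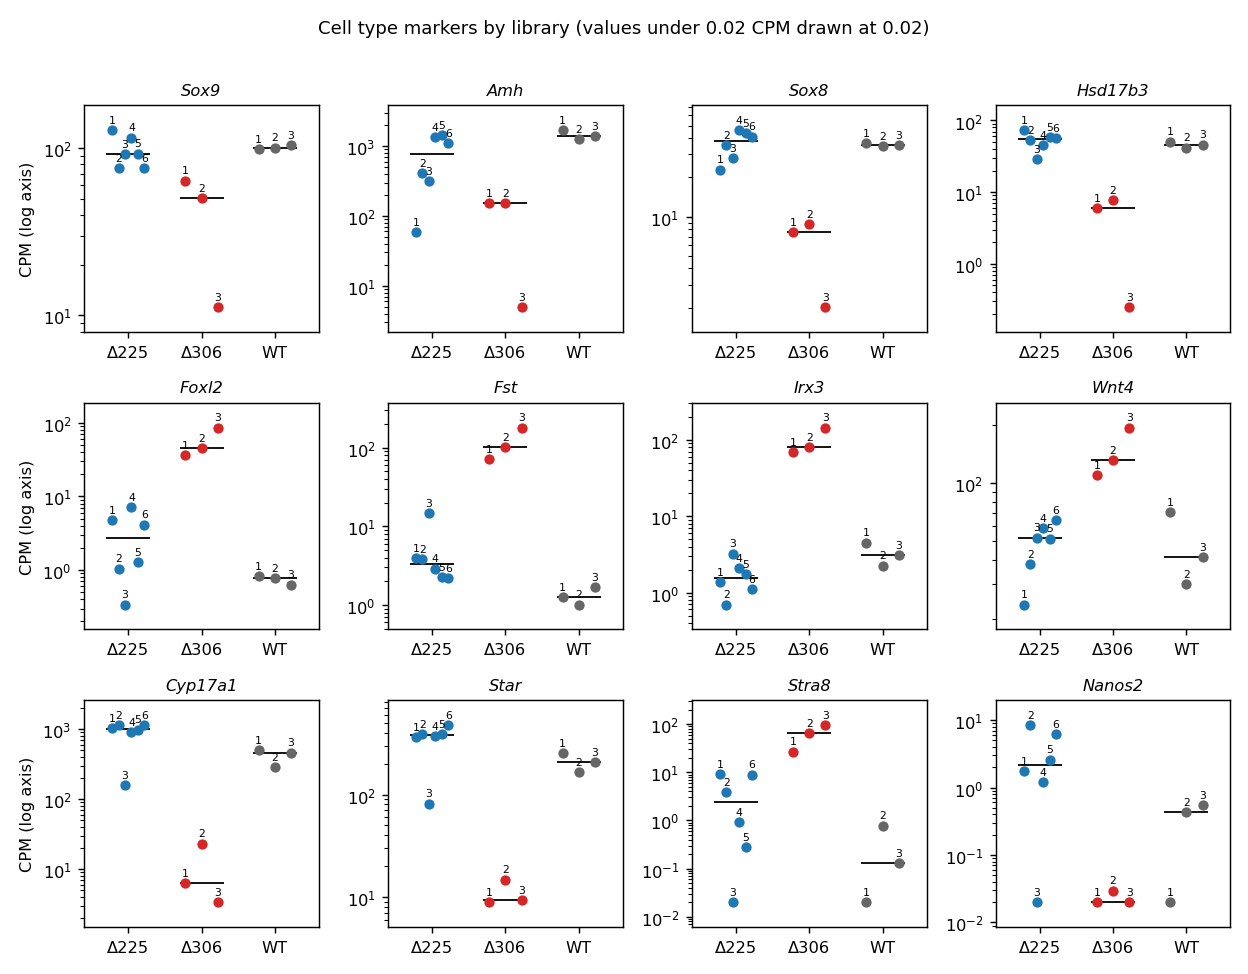
CPM (log axes) of 12 markers in each library of Δ225, Δ306 and WT, with replicate numbers and bars at group medians. The rows show, from the top, Sertoli genes, ovarian supporting-cell genes, and Leydig (Cyp17a1, Star) and germ-cell genes (Stra8, Nanos2), with values under 0.02 CPM drawn at 0.02. Δ306 libraries lie above all Δ225 libraries for the 4 ovarian genes and below them for Cyp17a1 and Star, and Δ306 replicate 3 is lowest for the 4 Sertoli genes.

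Fetal Leydig genes had the highest median of the 26 lists. Of 12 tested, 8 rose in Δ225 (6.47% over all genes) and none fell, with a median of 4.39. Cyp17a1, whose enzyme makes androgen precursors, held 1023, 1126, 157, 897, 978 and 1137 CPM in Δ225 replicates 1 to 6 and 6.36, 23.2 and 3.39 CPM in Δ306. Δ225 exceeded Δ306 throughout, and 5 of its 6 libraries exceeded the WT values of 501, 287 and 461 CPM. The log2 fold change was 6.33 (SE 1.47), with adjusted p = 0.0083. Star, which carries cholesterol into mitochondria, held 81.4 to 476 CPM (median 378) against 8.91, 14.8 and 9.4 CPM, a change of 4.96 (SE 0.79, adjusted p = 6.75e-04). Cyp11a1, which cuts the cholesterol side chain, held 63 to 934 CPM (median 667) against 6.85, 12.2 and 2.26 CPM, a change of 6.26 (SE 1.66, adjusted p = 0.0172).

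Hsd3b1 (3-beta-hydroxysteroid dehydrogenase), the receptors Prlr and Lhcgr, the lipoprotein receptor Scarb1 and the electron carrier Fdx1 rose as well, by 2.12 to 4.86. Insl3, a Leydig hormone of testis descent, held 0.0967 to 18.6 CPM (median 7.23) against 0.351, 0.446 and 0.247 CPM and was not called by edgeR (adjusted p = 0.0677). It was called by DESeq2 (adjusted p = 0.0066) and, by edgeR, without Δ225 replicate 1 (0.0447) or 3 (0.041). Nr5a1, which Leydig and Sertoli cells share, was at 0.58 (adjusted p = 0.249). Within Δ225, replicate 3 held the lowest value of Cyp17a1, Star and Cyp11a1. Without Δ306 replicate 3, Cyp11a1, Cyp17a1, Scarb1 and Fdx1 lost the call (adjusted p 0.0533 to 0.0989) and 4 were left. Without Δ306 replicate 1 or 2, Cyp11a1 and Fdx1 were lost (adjusted p 0.0596 to 0.0597 and 0.0559 to 0.0607). Leaving out Δ225 replicates 1 and 3 raised the count to 11.

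Steroid genes better known from the adrenal cortex followed the same direction, with 4 of 6 called higher and a median of 3.82. Cyp11b1, the 11-beta-hydroxylase, held 0.532 to 23.3 CPM (median 10.2) in Δ225 and 0.176, 0 and 0 CPM in Δ306, a change of 7.67 (SE 1.57). Without Δ306 replicate 1, the one Δ306 library with a count, the fitted change was 11.52 (adjusted p = 0.0079) and depends on the prior count. Cyp21a1, the 21-hydroxylase, held 0.339 to 15.5 CPM (median 9.22) against 0, 0.0297 and 0 CPM. Reads of Cyp21a1 can be shared with its near-identical pseudogene, so its size is uncertain. The ACTH receptor gene Mc2r rose by 3.58 (SE 0.52) and the aldo-keto reductase gene Akr1b7 by 3.36 (SE 0.99). Akr1b7 lost the call without any 1 of the Δ306 replicates (adjusted p 0.0638, 0.123 and 0.121). Cyp11b2 and the MC2R accessory gene Mrap were not called (adjusted p = 0.0751 and 0.294).

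Steroid synthesis starts from cholesterol, and genes of cholesterol synthesis and uptake were also higher in Δ225. Of 18 genes, 12 rose (6.47% over all genes), none fell, and the median was 0.87. Lss, which closes the sterol rings, held 29.4 to 133 CPM (median 96.4) in Δ225, 37.4, 33.3 and 33.8 CPM in Δ306 and 71.9, 50 and 71 CPM in WT. Nsdhl, a later sterol dehydrogenase, held 26.6 to 72.5 CPM (median 63.5) against 26.3, 23.2 and 24.2 CPM in Δ306. The changes were 1.38 (SE 0.34) and 1.26 (SE 0.27), both past the threshold (adjusted p 0.00545 to 0.0109). Only Nsdhl and Fdft1 did not overlap between groups, and Δ225 replicate 3 lay at or near the Δ306 level for the genes given here. The count changed when single libraries were left out: 15 genes were called without Δ225 replicate 3, but 5, 1 and 2 without Δ306 replicates 1, 2 and 3.

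The promoters of this group are shown because its members moved together. RefSeq promoter entries (GRCm38.p6) matched 12 of the 18 genes, 8 of them called. Each sequence was searched over the 250 bases upstream of the start, on both strands, for CACCCCAC, 1 form of a sterol regulatory element, and for CCAAT, the core of the NF-Y site. CACCCCAC was present upstream of Hmgcs1 alone (2.58% of all 32851 promoter entries hold it). CCAAT was searched after the first motif had been seen to be rare, and it was present for all 12 genes, in 12 of their 14 entries, against 33.8% of all entries. The 4 genes that were not called (Mvk, Mvd, Idi1, Insig1) held it as well, so it did not separate called from uncalled members. Of 8 fetal Leydig genes in the table, 4 held CCAAT, as did 4 of 8 FGF-ERK, 2 of 11 Sertoli and 2 of 10 pre-granulosa genes. None of the Leydig genes held AAGGTCA or AAGGCCA, forms of the NR5A1 site that 9.09% of all entries hold. An NR5A1 form was present in 2 of the 14 cholesterol entries. The ETS motif CCGGAAGT and the CRE motif TGACGTCA were also searched and were present in 0 of the 14. A match describes the letters and is not evidence of a bound factor. Sequences of 4 called genes follow, 5′ to 3′ towards the start, with CCAAT or its reverse complement ATTGG in capitals: Lss (chr10:76531355-76531604, plus strand), Cyp51 (chr5:4104698-4104947, minus strand), Nsdhl (chrX:72918271-72918520, plus strand) and Hsd17b7 (chr1:169969206-169969455, minus strand).
Lss: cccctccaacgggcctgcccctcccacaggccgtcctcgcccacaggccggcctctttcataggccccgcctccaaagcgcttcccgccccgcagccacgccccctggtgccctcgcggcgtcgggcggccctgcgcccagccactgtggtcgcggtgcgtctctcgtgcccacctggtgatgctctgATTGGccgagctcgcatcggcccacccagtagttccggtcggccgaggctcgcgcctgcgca
Cyp51: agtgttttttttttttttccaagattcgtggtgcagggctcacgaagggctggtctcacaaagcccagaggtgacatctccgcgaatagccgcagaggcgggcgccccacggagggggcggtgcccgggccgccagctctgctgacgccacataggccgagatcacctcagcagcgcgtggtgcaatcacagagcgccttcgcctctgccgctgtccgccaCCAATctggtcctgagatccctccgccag
Nsdhl: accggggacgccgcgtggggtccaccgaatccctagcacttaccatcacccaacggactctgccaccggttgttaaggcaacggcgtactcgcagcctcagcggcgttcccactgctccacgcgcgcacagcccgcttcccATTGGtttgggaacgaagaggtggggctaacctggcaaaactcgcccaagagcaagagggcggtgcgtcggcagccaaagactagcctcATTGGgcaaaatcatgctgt
Hsd17b7: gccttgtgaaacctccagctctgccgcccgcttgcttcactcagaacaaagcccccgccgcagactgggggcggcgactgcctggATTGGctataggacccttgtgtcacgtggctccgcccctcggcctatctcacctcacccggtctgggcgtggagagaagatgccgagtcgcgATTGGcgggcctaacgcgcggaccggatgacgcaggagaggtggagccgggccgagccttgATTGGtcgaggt

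Hedgehog targets in the interstitium were higher in Δ225. Of 8 pathway genes, Ptch1, Gli2 and Hhip rose and none fell, with a median of 1.37. Ptch1, the receptor that hedgehog signalling itself induces, held 249 to 306 CPM (median 289) against 129, 115 and 66.4 CPM, a change of 1.45 (SE 0.37). Hhip, an inhibitor that binds the ligand, rose by 2.79 (SE 0.81). Dhh, the ligand made by Sertoli cells, held 32.8 to 58 CPM (median 42.2) against 16.1, 17.3 and 1.17 CPM and did not overlap, but its change of 1.92 (SE 1.16) was not called (adjusted p = 0.292). Gli1 held 24.6 to 91.4 CPM (median 73.6) against 35.9, 25.9 and 14.9 CPM (adjusted p = 0.234). Without Δ306 replicate 3 Ptch1 and Hhip lost the call (adjusted p 0.0983 to 0.145), and Hhip also without replicates 1 and 2 (0.0594 and 0.0818).

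Interstitial progenitor genes, the stroma from which Leydig cells arise, were higher in 4 of 10 cases and lower in none (median 0.80). Wnt5a, a secreted WNT of the interstitium, held 273 to 402 CPM (median 381) against 103.6, 80.1 and 98.4 CPM, a change of 1.96 (SE 0.27, adjusted p = 3.77e-04). Pdgfra, the receptor of this population, rose by 1.37 (SE 0.23). Nr2f2, a nuclear receptor of steroidogenic precursors, rose by 1.05 (SE 0.27) and lost the call without Δ306 replicate 2 or 3 (adjusted p 0.0774 and 0.077). In 3 of the 10 genes the log2 fold change was below 0, 1 of them with an unadjusted p under 0.05 by edgeR, and none was called. Lhx9 was at -0.11 and Osr1 at -0.22. Nr2f1 was at -0.89 in the authors' deposited comparison (adjusted p = 0.104 by DESeq2). Among the 10 gonad factors Emx2 alone was called, lower at -1.11 (SE 0.28, adjusted p = 0.0141). It lost the call without Δ306 replicate 2 or 3 (0.0599 and 0.114).

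Of 10 activin genes 2 rose, Inhba and Inha, and 1 fell, Fst (median 0.28). Inhba, encoding an activin subunit, held 41.4 to 185 CPM (median 79.7) in Δ225 and 6.89, 8.95 and 5.69 CPM in Δ306. Inha, the alpha subunit that turns activin into inhibin, held 30.4 to 272 CPM (median 186) against 19.8, 19.3 and 19.3 CPM. Both groups were apart for both genes, with changes of 3.70 (SE 0.75) and 3.06 (SE 0.70, adjusted p 0.00339 to 0.00753), while Fst was lower as given above. Inha lost the call without Δ306 replicate 3 (adjusted p = 0.051). Inhbb, encoding another activin subunit, was at 0.91 (adjusted p = 0.147). The receptors and the SMAD genes were not called, and Smad2 was at 0.33 (adjusted p = 0.0575).

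In the retinoic acid pathway 2 of 12 genes rose and 3 fell, with a median of -0.62. Aldh1a1, which makes retinoic acid, held 444 to 980.2 CPM (median 856) against 188, 234 and 150.2 CPM, a change of 2.04 (SE 0.38, adjusted p = 0.00207). The binding protein gene Crabp1 fell by 2.35 (SE 0.34), from 28, 13.9 and 24.4 CPM to 2.24 to 7.5 CPM (median 4.01). Crabp2, a second carrier of retinoic acid, and Cyp26a1, a degrading enzyme, were also lower, at -0.91 and -2.69. Cyp26a1 lost the call without Δ306 replicate 2 (0.0914), and Crabp2 without Δ306 replicate 1, where it was at -0.55 (adjusted p = 0.241). Crabp2 was also lost without Δ306 replicate 3 or Δ225 replicate 4 or 5 (adjusted p up to 0.0671). The receptor Rara was at 0.53 with an adjusted p of 0.047, a call that was lost without any 1 of the Δ306 replicates (adjusted p up to 0.19) and without Δ225 replicate 2, 4, 5 or 6.

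General germ-cell genes did not pass the test. Of 10 genes shared by all germ cells none was called by edgeR, none had an unadjusted p under 0.05 and DESeq2 called none. Ddx4, an RNA helicase of germ cells, held 59 to 219.6 CPM (median 151) in Δ225 and 84.9, 126 and 137 CPM in Δ306, a change of 0.38 (SE 0.60). WT replicate 1 held only 4.27 CPM of Ddx4, so WT is an uneven reference for germ-cell genes. Stra8, the retinoic acid target that opens meiosis in the ovary, held 9.27, 3.86, 0, 0.927, 0.281 and 8.98 CPM in Δ225 replicates 1 to 6 and 27.1, 64.5 and 95.9 CPM in Δ306. All Δ225 libraries lay below all Δ306 libraries, with a change of -4.07 (SE 1.10) and adjusted p = 0.0195. Rec8, the meiotic cohesin, held 2.37 to 14.4 CPM (median 7.64) against 52, 70.2 and 112 CPM, a change of -3.34 (SE 0.60, adjusted p = 0.00149).

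Those were the 2 calls among 14 meiotic genes, whose median was -0.59. Summed over the list, Δ225 replicates 1 to 6 held 655, 251, 83.7, 118, 140 and 247 CPM and Δ306 libraries 254, 441 and 558 CPM. Replicate 1 of Δ225 thus lay above all Δ306 libraries in this sum. The synaptonemal genes Sycp1 (0.47), Sycp2 (1.04) and Sycp3 (-0.64) were not called. Stra8 lost the call without Δ306 replicate 2 or 3 (adjusted p 0.0572 and 0.096). Of 10 male germ-cell genes all had a log2 fold change above 0 (median 1.75), but Nanos2 alone was called. Nanos2, the RNA-binding protein that blocks meiosis in male germ cells, held 1.76, 8.42, 0, 1.21, 2.6 and 6.25 CPM in Δ225 and 0, 0.0297 and 0 CPM in Δ306. It was absent from Δ225 replicate 3, so the groups overlapped. The Nanos2 call (adjusted p = 0.0227) was lost without any 1 of the Δ306 replicates (0.0738, 0.0885 and 0.113). Nodal and its inhibitor Lefty2, which act in early male germ cells, were apart between groups but not called (adjusted p 0.147 to 0.18). Dnmt3l, a cofactor of DNA methylation in prospermatogonia, was too unevenly counted to test, with 193 counts over Δ225 and 1 over Δ306.

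Of 16 genes of the testis cords, among them those of the basement membrane, 5 rose and none fell (median 0.43). The list also holds Col9a1, Col9a2, Col9a3, Itga6 and Cldn11. Col4a1, the main collagen of that layer, held 970.0 to 2305 CPM (median 1766) in Δ225, 668, 501 and 516 CPM in Δ306 and 2860.4, 2618 and 2316 CPM in WT. Its change of 1.62 (SE 0.31, adjusted p = 0.00246) was matched by Col4a2 at 1.56 (SE 0.30), encoded beside it. The linker gene Nid1 rose by 1.35 (SE 0.24), and the laminin genes Lama2 and Lamb1 by 2.04 (SE 0.37) and 0.80 (SE 0.15). These 5 calls were made in every alternative run. Lamc1 and Hspg2, parts of the same layer, were not called (adjusted p = 0.462 and 0.233).

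Among cell cycle genes, 3 of 12 that govern arrest and G1 fell. Cdkn1b, a CDK inhibitor that marks non-dividing pre-granulosa cells, held 58.9 to 85.4 CPM (median 68) against 116, 135 and 180.0 CPM, a change of -1.04 (SE 0.26). The cyclin genes Ccnd1 and Ccne1 fell by 1.31 and 1.11. Cdkn1b lost the call without Δ306 replicate 3 (0.131) and Ccnd1 without replicate 1 (0.0524). Of 14 genes of S phase and mitosis only Top2a was called (0.62, adjusted p = 0.0394), and the proliferation marker Mki67 was at 0.53 (adjusted p = 0.354). The Top2a call was lost without any 1 of the Δ306 replicates and without Δ225 replicate 1 or 3 (adjusted p up to 0.163).

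Markers of other cells were summed for each library. Lists with 1 call among 12 genes are near the shares of 6.47% higher and 6.74% lower over all genes tested. Endothelial sums were 367 to 732 CPM in Δ225 and 400 to 613 CPM in Δ306, with 1 of 12 genes called (Cdh5, 0.70), a call lost without Δ306 replicate 2 or 3 (0.211 and 0.146) and without Δ225 replicate 1, 3, 4, 5 or 6. Macrophage sums were 35.3 to 70.3 CPM and 37.9 to 91.5 CPM, and none of 12 genes was called by edgeR or DESeq2 (1 had an unadjusted p under 0.05). Red blood cell sums were 3767 to 21498 CPM and 12077 to 23185 CPM. All 10 of those genes had a log2 fold change below 0, none was called by edgeR or DESeq2, and 2 had an unadjusted p under 0.05. Mesonephric sums were 47.8 to 97.8 CPM and 46.1 to 80.7 CPM. Of those 12 genes 1 was called, Gata3, lower in Δ225 at -2.32. In the muscle list 1 of 12 was called, the ventricular light chain Myl2, lower at -3.11. Neuronal genes gave 1 higher call, Tubb3 (1.91, lost without Δ306 replicate 2 or 3), and 3 lower ones, among them Stmn2 at -2.19. Without Δ306 replicate 1 the lower calls numbered 1. All 4 Y-linked genes were uncalled by edgeR and DESeq2, none with an unadjusted p under 0.05, and Ddx3y was at -0.02. The 13 mitochondrially encoded messages were all above 0 in log2 fold change (median 1.26) with 1 call by edgeR, mt-Nd5. That call was lost without Δ225 replicate 1, where the change went from 1.61 to 0.74 (adjusted p = 0.0644). It was also lost without Δ225 replicate 2 (0.0637) and without each Δ306 replicate (0.141, 0.118 and 0.166). DESeq2 called 8 of them higher. The part of these markers in the other results was not tested.

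**Figure D5:**
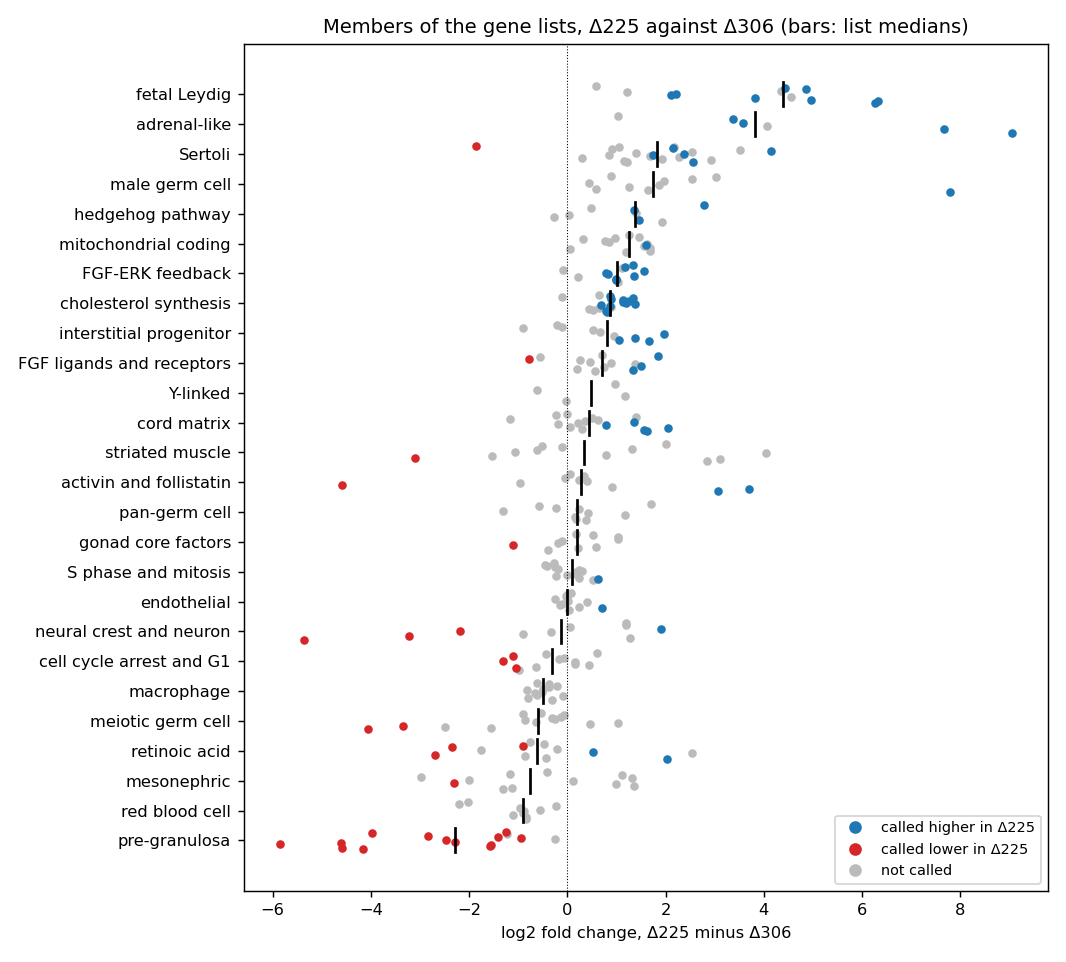
Log2 fold change, Δ225 minus Δ306, of each tested member of 26 gene lists, ordered by list median (black bars), with called genes in blue (higher) and red (lower). Fetal Leydig and adrenal-like genes have the highest medians, 4.39 and 3.82, and pre-granulosa genes the lowest, -2.29.

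The largest increases among called genes with a mean of at least 1 CPM and no overlap were, besides the steroid genes above, Serpina5, Bpifa6, Crhr1, Oxtr and Bcan. Oxtr, the oxytocin receptor, held 12.4 to 58.9 CPM (median 49.1) in Δ225, 1.36, 1.9 and 0.848 CPM in Δ306 and 47.4, 29.5 and 33.9 CPM in WT, a change of 5.00 (SE 1.04, adjusted p = 0.0041). Crhr1, the receptor of corticotropin-releasing hormone, held 5.85 to 32.4 CPM (median 23.7) against 0.746, 0.922 and 0 CPM, and Serpina5, a protease inhibitor, held 2.08 to 11.6 CPM (median 7.7) against 0.0439, 0.0297 and 0 CPM. Each was also present in WT, where Crhr1 was at 25.9, 16 and 17.7 CPM. Crhr1 lost the call without any 1 of the Δ306 replicates (adjusted p up to 0.102), and Bpifa6 and Bcan without replicate 3 (0.0559 to 0.0773).

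The 10 largest decreases were genes near 0 in Δ225: Nr2e3, Isx, Cdx2, Tph2, Hand1, Irx3os, Ucp1, Chrm4, Scrt2 and Phlda2. Chrm4, a muscarinic acetylcholine receptor gene, held 0.0976 to 0.919 CPM (median 0.333) in Δ225, 28.5, 25.2 and 58.1 CPM in Δ306 and 0.553, 0.583 and 0.475 CPM in WT, a change of -6.33 (SE 0.95). Cdx2, a homeobox gene of the gut, and Isx, an intestinal homeobox gene, held 2.11, 7.2 and 12.8 CPM and 3.91, 5.12 and 8.41 CPM in Δ306 and at most 0.122 and 0.0662 CPM in Δ225. Nr2e3, a nuclear receptor of the retina, had no count in any Δ225 library and 0.658, 1.73 and 2.76 CPM in Δ306, where 3 counts over the Δ225 libraries would be 0.0164 CPM. All 10 were low in WT as well, at most 0.583 CPM in any library. Phlda2, an imprinted gene best known from the placenta, held 5.4, 14.3 and 28.7 CPM in Δ306 and 0.0883 to 0.435 CPM (median 0.268) in Δ225, a change of -5.94 (SE 1.04, adjusted p = 0.00125).

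The most abundant genes called higher were mt-Nd5 and the matrix genes Col3a1, Col4a1, Col1a2 and Sparc, and those called lower encode ribosomal proteins, among them Rps3, Rpl7, Rps3a1 and Rps12. Col3a1, a fibrillar collagen, held 1339 to 2336 CPM (median 2080.3) against 1337, 455 and 719 CPM, a change of 1.22 (SE 0.35, adjusted p = 0.0269). Rps12 held 383 to 829 CPM (median 554) against 783, 1177 and 1410.0 CPM, a change of -0.98 (SE 0.23, adjusted p = 0.00898). The changes of Rps3, Rpl7 and Rps3a1 were -0.90 to -0.46. Without Δ306 replicate 3 none of these genes except Col4a1 was called (adjusted p 0.104 to 0.277).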

How the data were processed

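RNA sequencing of E13.5 XY gonads was analysed from 1 table of gene counts that the authors deposited, with 57186 genes and 22 libraries of WT, Δ306, Δ225, Δ104 and Δ93. The values are whole numbers with totals that differ between libraries, and were taken as raw counts. The submitters' processing notes name STAR, DESeq2 and build mm10, and for WT and Δ306 also STAR 2.7.10a, featureCounts and Subread. Which tool and annotation made this table is not given in the sources used here. The authors also deposited a table of comparisons with log2 fold changes, their standard errors, p-values and adjusted p-values, and the mean normalized count per gene, a signal averaged over samples. It was used here for the count of calls, and its log2 fold changes had a correlation of 0.9942 with those computed here, across genes.

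Counts were filtered (filterByExpr with the groups), scaled by TMM and tested with edgeR 4.0.16 in R 4.3.3 (glmQLFit, glmQLFTest; 17 residual degrees of freedom; limma 3.58.1), with Benjamini-Hochberg adjustment over all 22941 genes and calls at an adjusted p under 0.05. The fit was also run on simulated counts with a single fixed spread for all genes. The simulation held none of the library differences given above except depth, so it does not bear on them. CPM are relative to TMM-scaled totals. The SE is the log2 fold change, without a prior count, divided by the square root of F. Libraries held 11582619 to 46821225 counts in Δ225 and 21797725 to 31815037 in Δ306. The number of sample columns not used was 0. Symbols came from the deposited table for 56651 genes and from GENCODE M21 for 4, and 531 kept their identifiers. Exon lengths and gene coordinates came from GENCODE M21 on GRCm38, promoters from RefSeq on GRCm38.p6. Reads carry no molecular identifiers, so floors cover counting error only.

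The members and the 26 gene lists were chosen with earlier results of these data known. Named genes were Fgf9, fixed markers, list members, neighbours within 2 Mb, the 5 most abundant called genes in each direction and the 10 largest increases and decreases among called genes with a symbol other than Gm or Rik names, a mean of at least 1 CPM and no overlap. Gm33321 was named as a neighbour. Some genes that this rule names are not reported here. The alternatives were RLE scaling, no composition factor, DESeq2 1.42.0, no filter on low counts, a fit of both groups alone, the replicate number as a block and each library left out. The 3 joint omissions of libraries were added after the data had been seen. The deposited comparisons of the earlier table and the Meis1 tables were not used here.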

Additional observations from a re-analysis of the deposited data

Results flagged for a closer look

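Of 122 named genes, 19 had 1 Δ225 library outside the others by Dixon's criterion for 6 values at 95%. Chance alone flags about 1 in 20 groups. Replicate 3 gave 13 of the 19 values, replicate 1 gave 3, replicate 4 gave 2, and replicate 2 gave 1.

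Replicate 3 was high for Fgf9 (16.5 CPM, others 3.69 to 6.36), Fst (14.6 CPM, others 2.17 to 3.9), Hand1 (0.145 CPM, others 0), Myl2 (5.95 CPM, others 0 to 1.39) and Stmn2 (3.34 CPM, others 1.1 to 1.49). It was low for the Leydig genes Cyp17a1 (157 CPM, others 897 to 1137) and Star (81.4 CPM, others 366 to 476). The sterol genes Fdft1 (72.1 CPM), Cyp51 (79.5 CPM), Nsdhl (26.6 CPM) and Hsd17b7 (23 CPM) were lowest there too, where the other 5 libraries held at least 122, 178, 56 and 53.9 CPM in that order. Rspo1 was at 13 CPM (others 21.8 to 26.5) and Wnt5a at 273 CPM (others 361 to 402). The same library held 1990 CPM of striated muscle genes, and the part of this in the values was not tested.

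Replicate 1 was high for mt-Nd5 (13617 CPM, others 1829 to 3894), Nr2f2 (518 CPM, others 261 to 312) and Emx2 (111 CPM, others 47.6 to 63). Replicate 2 was high for Rps3a1 (1188 CPM, others 787 to 929). Replicate 4 was high for Isx (0.0662 CPM, others 0 to 0.0234) and Ucp1 (0.0441 CPM, others 0), both near 0. Δ306, with 3 libraries, was not checked in this way.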

How the results depend on the processing

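Log2 fold changes are Δ225 minus Δ306 and counts are genes called by edgeR unless DESeq2 is named. Leaving out each library in turn gave 887 to 3368 called genes, and Fgf9 changes of 1.03 to 1.64. Over the same omissions the calls were 1 to 5 Sertoli, 4 to 10 fetal Leydig, 1 to 15 cholesterol, 1 to 3 hedgehog, 3 to 8 FGF-ERK, 1 to 3 activin and 1 to 2 retinoic acid genes higher. Lower calls were 8 to 14 pre-granulosa, 2 to 5 retinoic acid, 1 to 3 meiotic and 1 to 3 neuronal genes. Of the 3030 called genes, 28.9% were also called without Δ306 replicate 3 and 99.6% by DESeq2.

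A fit of both groups alone called 1945 genes, with Fgf9 at 1.51, 8 Sertoli and 7 cholesterol genes higher, and 1 retinoic acid, 4 meiotic and 1 neuronal gene lower. DESeq2 called 4219 genes, the same number as the authors' deposited comparison, and the 2 are not separate checks. It called 5 FGF ligands and receptors higher. Without a filter on low counts 2105 genes were called, and 1 retinoic acid gene was higher, as without a composition factor. Without Δ225 replicate 4 and Δ306 replicate 3, 596 genes were called and Fgf9 was at 1.48 (adjusted p = 0.111). The higher calls were then 1 Sertoli, 4 Leydig, 2 adrenal-like, 0 cholesterol, 0 hedgehog, 3 FGF-ERK, 1 activin and 1 retinoic acid gene, and the lower calls 7 pre-granulosa and 1 meiotic gene. Without Δ225 replicates 1 and 3, or 1 to 3, 5 cell cycle genes were lower, and without 1 to 3, 5 FGF ligands and receptors and 4 activin genes were higher. The cause of these changes was not tested.

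With the replicate number as a block, 3393 genes were called, Fgf9 was at 1.48, and 3 Sertoli, 5 cholesterol and 1 retinoic acid gene were higher and 1 neuronal gene lower. Deviations of same-numbered libraries had correlations of -0.08, 0.02 and -0.0002, so the numbers were not taken to pair the samples.

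Ddx3y, uncalled throughout, was at -0.02 and changed sign to 0.0049 with RLE scaling, 0.0104 by DESeq2, 0.0056 in the fit of both groups alone, 0.1215 with the block, 0.0524 without Δ225 replicates 1 and 3. It ranged from -0.5744 to 0.8515 when each library was left out.

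Depth limits the low genes: 3 counts over all Δ225 libraries correspond to 0.0164 CPM. With 3 Δ306 libraries, 1 of them with a Y-linked sum near 0, the size of most changes rests on few samples.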

Other observations

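Several gene families stood out after the values had been seen, and their counts are given as a description. Over all genes tested, 6.47% were called higher and 6.74% lower. Calls also followed gene length, with 84 higher and 495 lower in the shortest class and 782 and 200 in the longest. The part of length, and of the selection of polyadenylated RNA, in the family counts was not tested. Of 84 ribosomal protein genes, 35 were lower in Δ225 and none was higher by edgeR (67 lower and 0 higher at an unadjusted p under 0.05). DESeq2 called 40 of 85 lower and none higher. Their median log2 fold change by edgeR was -0.60 against -0.01 for all genes. Of 40 NADH dehydrogenase subunit genes of the mitochondrial inner membrane, 15 were lower and none higher by edgeR (median -0.50), while 1 had an unadjusted p under 0.05 upward and 23 downward, and DESeq2 called 16 lower and none higher. Of 52 clustered histone genes, 20 were lower and none higher by edgeR (median -1.30), with 37 lower and none higher at an unadjusted p under 0.05, and DESeq2 called 31 of 62 lower and none higher. Of 43 collagen genes, 14 were higher and 1 lower (median 0.57). Without Δ306 replicate 3 no ribosomal protein or NADH dehydrogenase gene was called, the histone calls fell to 6 lower and the collagen calls to 6 higher and 1 lower. With Δ225 replicates 4 to 6 alone, ribosomal protein calls were 45 lower and none higher.

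2 genes outside the naming rule were singled out after their values were seen. Egr4, an early-response gene related to Egr1, had no count in any Δ306 library and a mean of 8.53 CPM in Δ225, which is at least 241-fold more when 3 counts over the 3 Δ306 libraries are taken as the limit. Its Δ225 libraries held 1.95, 13.3, 0, 5.91, 9.59 and 20.5 CPM and the WT libraries 0, 1.55 and 2.37 CPM. Peg13, an imprinted non-coding RNA, held 0.39, 0.13, 0.0967, 0.11, 0.187 and 0.146 CPM in Δ225 and 0.219, 17.3 and 23.9 CPM in Δ306. It was called lower (log2 fold change -6.42, adjusted p = 4.01e-04) although Δ306 replicate 1 was at the Δ225 level, and the WT libraries held 36.9, 5.36 and 31 CPM.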
